A study of Saccharomyces cerevisiae with 7 samples.

Results

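The HOG (high osmolarity glycerol) pathway is the MAP kinase pathway that Saccharomyces cerevisiae uses when water leaves the cell. The 10 members described here, SLN1, YPD1, SSK1, SSK2, SHO1, STE11, PBS2, HOG1, SKO1 and HOT1, were chosen by gene symbol in the array annotation out of 5449 annotated S. cerevisiae genes. Each had 1 probeset, a set of short probes for 1 transcript, and none of those probesets carried an identifier for shared probes. RNA came from 7 separate cultures of the cir+ strain NRRL Y-12632 (ATCC 18824), all started from the same control-grown inoculum and shaken for 24 h at 30 °C. The mine drainage group (4 cultures) grew in YPD, a rich medium of yeast extract, peptone and glucose, made up with water that had stood on asbestos mine tailings through cycles of freezing and thawing, and the control group (3 cultures) grew in YPD made up with deionized water. The media chemistry in the study lists more magnesium and a higher pH in the mine drainage medium, together with more chloride and sulfate and a higher conductivity, and with sodium and potassium close to control. The medium was autoclaved and the leachate passed through a fine filter, so the cultures modelled exposure to dissolved leachate. A change in transcript level per cell and a change in the share of cells that express a gene cannot be told apart in such bulk RNA.

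In yeast, 2 membrane branches feed the pathway. In the first, the sensor histidine kinase Sln1 passes phosphate through Ypd1 to Ssk1 while the cell is at rest, and Ssk1 without phosphate activates the kinases Ssk2 and Ssk22. In the second, Sho1 works with the mucins Msb2 and Hkr1 and with the kinase Ste11. Both branches meet at the kinase Pbs2, which phosphorylates Hog1. Active Hog1 acts through DNA-binding proteins such as Sko1 and Hot1 and raises glycerol synthesis. The arrays measured mRNA and not phosphorylation, so the values below describe transcript levels of the components and not the activity of the kinase cascade.

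Signals are log2 values made by the authors with the Robust Multichip Average (RMA), and a difference of 1 is a doubling. Mine drainage minus control was tested with limma over 5498 S. cerevisiae probesets, with Benjamini-Hochberg adjustment over all of them and a threshold of 0.05 on the adjusted p. Over the whole array 31.6% of the probesets passed, 14.5% higher and 17.1% lower, so calls were common. Correlations between arrays over these probesets ran from 0.983 to 0.994 within mine drainage, from 0.986 to 0.994 within control and from 0.962 to 0.983 between the groups. Control replicate 1 correlated with the mine drainage arrays at 0.979 to 0.983, above control replicates 2 (0.966 to 0.972) and 3 (0.962 to 0.965). Over the 1812 probesets called without control replicate 1, the median place of its signal was 0.425 on a scale where 0 is the mean of the remaining controls and 1 is the mine drainage mean. Taken likewise, the place was -0.092 for control replicate 2 (688 probesets) and -0.17 for control replicate 3 (861 probesets), each over the probesets called without it. For both, the zero is a mean that includes control replicate 1, so the values of the 3 controls do not share 1 scale. For 8 control transcripts with probesets at either end, the excess of 3' over 5' signal was taken as a measure of RNA and cDNA length. It was 0.495, 0.866, 0.755 and 0.660 on mine drainage arrays 1 to 4. On control arrays 1 to 3 it was 0.792, 0.911 and 1.14, so control array 1 was the lowest of the controls. Its part in the results below was not tested beyond a fit that takes it as a covariate.

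Of the 10 members, 5 changed at an adjusted p under 0.05, where 31.6% of all probesets did. YPD1 and HOG1 rose (2 of 10, against 14.5% of all probesets), and HOT1, SHO1 and SSK2 fell (3 of 10, against 17.1%). SLN1, SSK1, STE11, PBS2 and SKO1 did not pass. The member differences ran from -0.65 for HOT1 to 0.75 for YPD1, with a median of 0.06, beside a median of -0.03 over all probesets. The median size of the difference, without its sign, was 0.34 over the members and 0.24 over all probesets. All 10 probesets lay above 1.52, the 95th percentile of the probesets taken as those for Schizosaccharomyces pombe, on all 7 arrays, with signals from 6.09 to 9.81. The groups did not overlap for 6 of 10 members (38.2% of all probesets), 2 with mine drainage wholly above control (17.7% of all probesets) and 4 with it wholly below (20.5%).

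**Figure D1:**
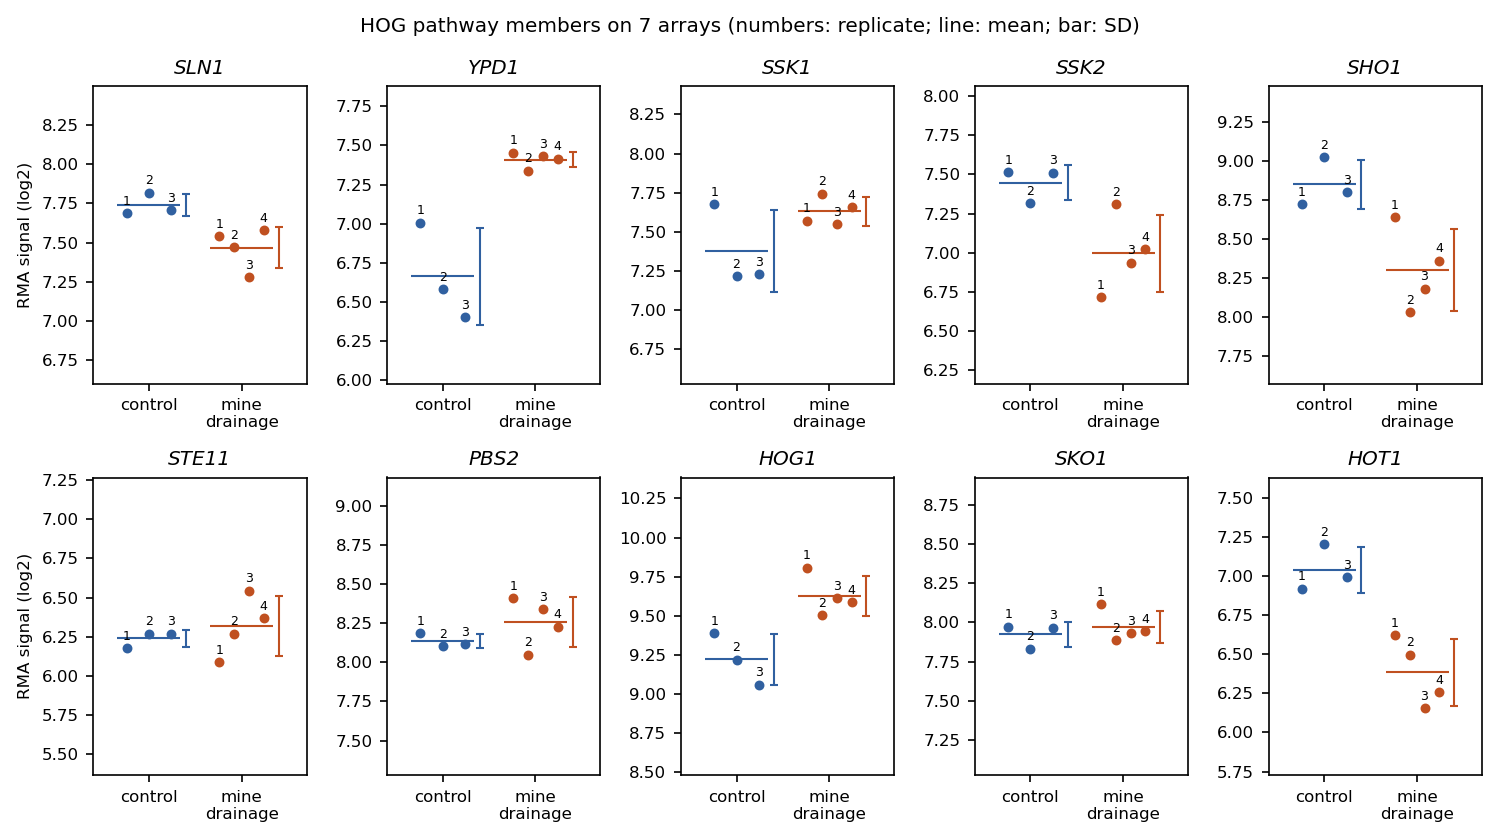
RMA log2 signal of the 10 HOG pathway members on the 3 control arrays (blue) and the 4 mine drainage arrays (orange), with the replicate number at each point, the group mean as a line and the SD as a bar, each panel spanning the same range of log2 units. Both groups are apart in YPD1, HOG1, SLN1, SSK2, SHO1 and HOT1, by as little as 0.0044 in SSK2 and as much as 0.33 in YPD1.

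**Figure D2:**
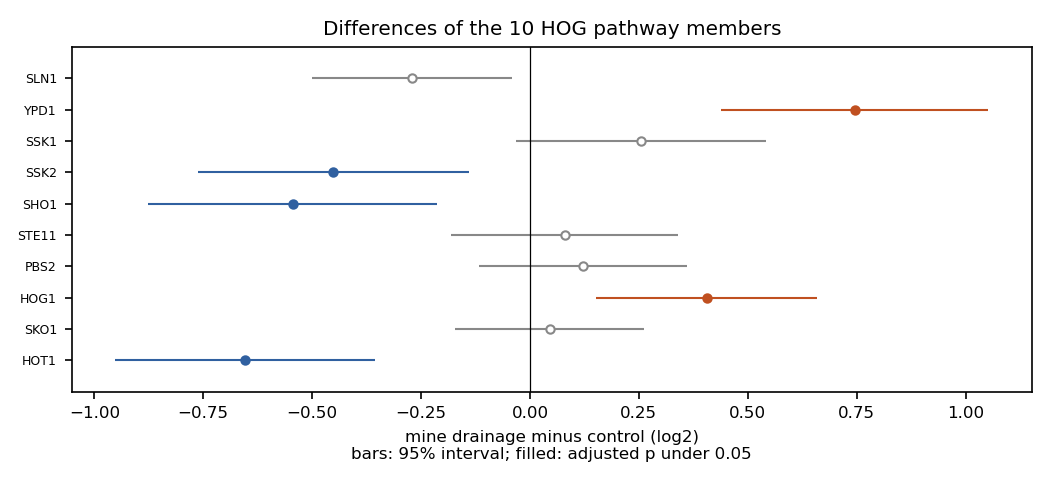
Mine drainage minus control on the log2 scale for the 10 members, with the 95% interval from limma, filled where the adjusted p is under 0.05. YPD1 and HOG1 lie to the right of zero, HOT1, SHO1 and SSK2 to the left, and SKO1, STE11 and PBS2 within 0.13 of it.

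The components of the Sln1 branch went in different directions. SLN1 (YIL147C) encodes the membrane-bound osmosensor and histidine kinase. Its log2 signal was 7.54, 7.47, 7.28 and 7.58 on mine drainage arrays 1 to 4 and 7.69, 7.82 and 7.71 on control arrays 1 to 3. All 4 mine drainage values were below all 3 control values, the nearest by 0.11. The difference of -0.27 (standard error 0.10, 95% interval -0.50 to -0.04) missed the threshold (adjusted p = 0.0697), and after a trend of signal with coding length was subtracted it was -0.13 (adjusted p = 0.333).

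YPD1 (YDL235C), whose protein carries phosphate from Sln1 to the response regulators Ssk1 and Skn7, had the largest rise among the members. Its signal was 7.45, 7.34, 7.43 and 7.42 in mine drainage and 7.01, 6.58 and 6.41 in control. The mine drainage arrays lay close together (SD 0.050), while the control arrays were spread more widely (SD 0.31) and control array 1 was the highest of them. The mean rose from 6.66 to 7.41, a fold change of 1.68 (difference 0.75, standard error 0.14, adjusted p = 0.00534). Control array 1 stood 0.561 of the way to mine drainage, and without it the difference was 0.92 (adjusted p = 0.00152). With this 3' to 5' measure as covariate it was 0.52 (adjusted p = 0.0635).

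SSK1 (YLR006C) encodes the response regulator at the end of that relay. It had 7.57, 7.75, 7.55 and 7.66 in mine drainage and 7.68, 7.22 and 7.23 in control. Control array 1 lay within the mine drainage range and the other control arrays lay below it, so the groups overlapped. The difference of 0.25 (standard error 0.13, adjusted p = 0.153) did not pass. Without control array 1 it was 0.41 and passed (adjusted p = 0.0188).

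SSK2 (YNR031C) encodes one of the MAP kinase kinase kinases that Ssk1 activates. It had 6.71, 7.31, 6.94 and 7.02 in mine drainage and 7.52, 7.32 and 7.51 in control. Mine drainage array 2 and control array 2 differed by only 0.0044, and the other mine drainage arrays lay clearly lower. SSK2 fell by 0.45 on the log2 scale, or 1.37-fold (standard error 0.14, adjusted p = 0.0347). This is the least firm of the calls: it was lost in 6 of 7 fits that each left out 1 array, without mine drainage array 1 (adjusted p = 0.0564), 3 (0.0825) or 4 (0.0709), and without control array 1 (0.0821), 2 (0.0708) or 3 (0.113). At 4740 bp SSK2 has the longest coding sequence of the members. After a trend of signal with coding length was subtracted its difference was -0.29 (adjusted p = 0.152), and with the 3' to 5' covariate it was -0.24 (adjusted p = 0.328).

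In the Sho1 branch, the membrane component fell and the kinase did not pass. SHO1 (YER118C) encodes the membrane protein that binds Pbs2. It had 8.64, 8.03, 8.18 and 8.36 in mine drainage and 8.72, 9.02 and 8.80 in control. All mine drainage arrays were lower, and array 1 of each group came within 0.083 of the other. The mean fell from 8.85 to 8.30, a fall of 1.46-fold (difference -0.54, standard error 0.15, adjusted p = 0.0225). The call was lost without mine drainage array 3 (adjusted p = 0.0609), control array 2 (0.105) or control array 3 (0.0623).

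STE11 (YLR362W) encodes a MAP kinase kinase kinase that the HOG pathway shares with the pheromone and filamentous growth pathways. It had 6.09, 6.27, 6.54 and 6.37 in mine drainage and 6.18, 6.27 and 6.27 in control. The control arrays lay inside the mine drainage range, and 3 of the 7 arrays carried the same value. The difference was 0.08 (95% interval -0.18 to 0.34, adjusted p = 0.628), and it ranged from 0.0039 to 0.16 with single arrays left out (the extremes without mine drainage arrays 3 and 1) and reached 0.20 with the 3' to 5' covariate.

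Of the shared kinases, HOG1 rose and PBS2 did not pass. PBS2 (YJL128C) encodes the MAP kinase kinase that is also a scaffold of the pathway. It had 8.41, 8.05, 8.34 and 8.23 in mine drainage and 8.19, 8.10 and 8.12 in control, and mine drainage array 2 was the lowest of all. The difference of 0.12 (95% interval -0.12 to 0.36, adjusted p = 0.408) was smaller than the SD of 0.16 between mine drainage arrays, and with the 3' to 5' covariate it turned to -0.011.

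HOG1 (YLR113W), the MAP kinase itself, had 9.81, 9.51, 9.61 and 9.59 in mine drainage and 9.39, 9.22 and 9.06 in control. All 4 mine drainage values exceeded all 3 control values, the nearest by 0.12. The mean rose from 9.22 to 9.63, a fold change of 1.33 (difference 0.41, standard error 0.11, adjusted p = 0.0244). Control array 1 was again the nearest of the controls, 0.506 of the way to mine drainage, and the call held without it (0.49, adjusted p = 0.0154). The call was lost without mine drainage array 3 (adjusted p = 0.0541) or 4 (0.0536) and without control array 2 (0.0882) or 3 (0.0993). With the 3' to 5' covariate the difference was 0.20 (adjusted p = 0.253).

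The genes for the DNA-binding proteins differed from each other. SKO1 (YNL167C) encodes a bZIP protein that represses its targets until Hog1 phosphorylates it. It had 8.12, 7.89, 7.93 and 7.94 in mine drainage and 7.97, 7.83 and 7.97 in control, nearly the same range. Its difference of 0.05 (95% interval -0.17 to 0.26, adjusted p = 0.747) was the smallest of the members, and it turned negative, to -0.033, with the 3' to 5' covariate and to values near zero without mine drainage array 1 (-0.0047) or control array 2 (-0.00045).

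HOT1 (YMR172W), a transcription factor that Hog1 uses at glycerol genes such as GPD1 and STL1, fell. It had 6.62, 6.50, 6.15 and 6.26 in mine drainage and 6.92, 7.20 and 6.99 in control. The groups were apart by 0.30, and the mean fell from 7.04 to 6.38, or 1.57-fold (difference -0.65, standard error 0.13, adjusted p = 0.00775). HOT1 was called in all 17 alternative fits, with differences from -0.87 to -0.56, and no other member was. Some of those fits left the difference of -0.65 unchanged. The adjusted p of HOT1 came close to the threshold under the one-way ANOVA (0.0496), with the 3' to 5' covariate (0.0460) and without control array 2 (0.0453).

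The replicate arrays of the mine drainage group did not take the same place in every member. Mine drainage array 1 was the highest of the 4 for 6 members and array 2 the lowest for 5, while SSK2 showed the opposite order, with array 1 lowest and array 2 highest. These arrays also held the lowest (0.495, array 1) and highest (0.866, array 2) 3' to 5' measure of the group. A link between that measure and the order of the arrays was not tested. The plot of settings shows how far each of the 5 called members moved.

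**Figure D3:**
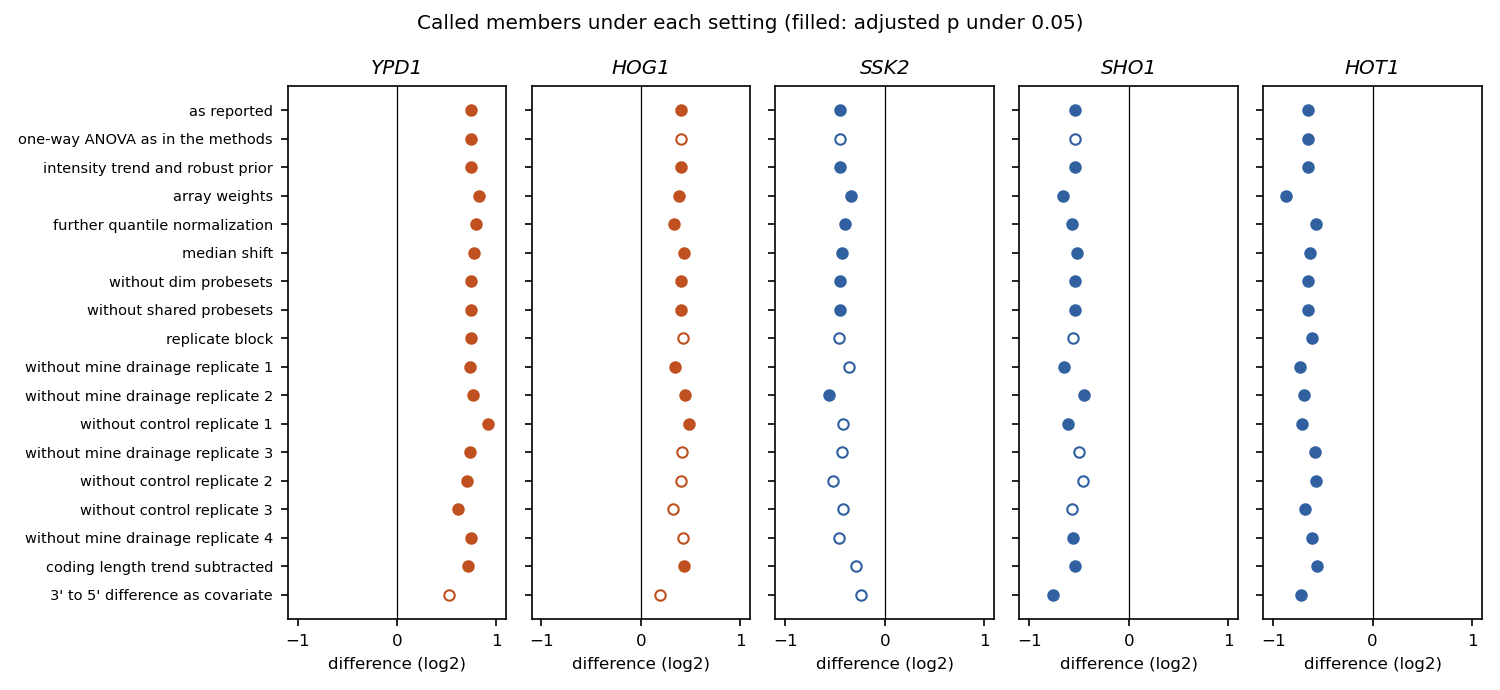
Mine drainage minus control on the log2 scale for the 5 called members, as reported and under each of 17 other settings (rows), filled where the adjusted p is under 0.05. No point crosses zero. HOT1 is filled throughout, YPD1 in all but the fit with the 3' to 5' covariate, and SSK2 is open in 10 of the 17.

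Besides the 10 members, 59 genes of 6 groups around the pathway were examined, of which 58 had a usable probeset (ENA1, a sodium pump gene, had none here). Of these 58, 10 rose and 9 fell, or 32.8% beside 31.6% of all probesets. That share is close to the background and says nothing particular about the groups as a whole. Their median difference was 0.03.

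Among 9 other sensors, adaptors and kinases, CLA4 rose, HKR1 and AHK1 fell, and 6 did not pass (median -0.13). The share called was 33.3%, beside 31.6% of all probesets. HKR1, a mucin that acts as a sensor upstream of Sho1, had 8.82, 8.21, 8.33 and 8.41 in mine drainage and 9.14, 9.40 and 9.44 in control. The groups were well apart, with a fall of 1.84-fold (difference -0.88, standard error 0.15, adjusted p = 0.00424). AHK1, which encodes a scaffold protein that binds Hkr1, had 6.44, 6.66, 6.26 and 6.27 in mine drainage and 6.95, 7.05 and 7.01 in control. It fell by 0.60 on the log2 scale (standard error 0.12, adjusted p = 0.00661), with the control arrays close together. CLA4, a p21-activated kinase like Ste20, had 7.03, 6.77, 6.89 and 6.93 in mine drainage and 6.54, 6.55 and 6.28 in control. It rose by 0.45 (standard error 0.11, adjusted p = 0.0129). The call was lost without control array 3 (adjusted p = 0.0579), with the replicate number as a block (0.0611) and with the 3' to 5' covariate, where the difference was 0.27 (0.139). With that covariate AHK1 was also lost, at -0.52 (adjusted p = 0.0670).

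MSB2, the other mucin sensor, was higher on every mine drainage array (6.49 to 6.78) than on any control array (5.77 to 6.47). Its difference of 0.43 missed the threshold (adjusted p = 0.0694). SSK22, the close relative of SSK2, had 7.26 to 7.58 in mine drainage and 7.50 to 7.57 in control, a difference of -0.13 (95% interval -0.36 to 0.11, adjusted p = 0.373).

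Among 6 genes whose products lower Hog1 signalling, NBP2 fell and none rose (median -0.08). The share called was 16.7%, beside 31.6% of all probesets (14.5% higher, 17.1% lower). NBP2, an adaptor that brings the phosphatase Ptc1 to Pbs2, had 7.20, 7.34, 6.999 and 7.06 in mine drainage and 7.84, 8.01 and 8.04 in control. The gap between the groups was 0.50, and the fall was 1.76-fold (difference -0.81, standard error 0.11, adjusted p = 0.00248). The tyrosine phosphatase genes PTP2 and PTP3 differed by -0.03 and -0.14 and the type 2C phosphatase genes PTC1, PTC2 and PTC3 by -0.18, 0.19 and 0.19, none past the threshold (adjusted p = 0.128 to 0.897).

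**Figure D4:**
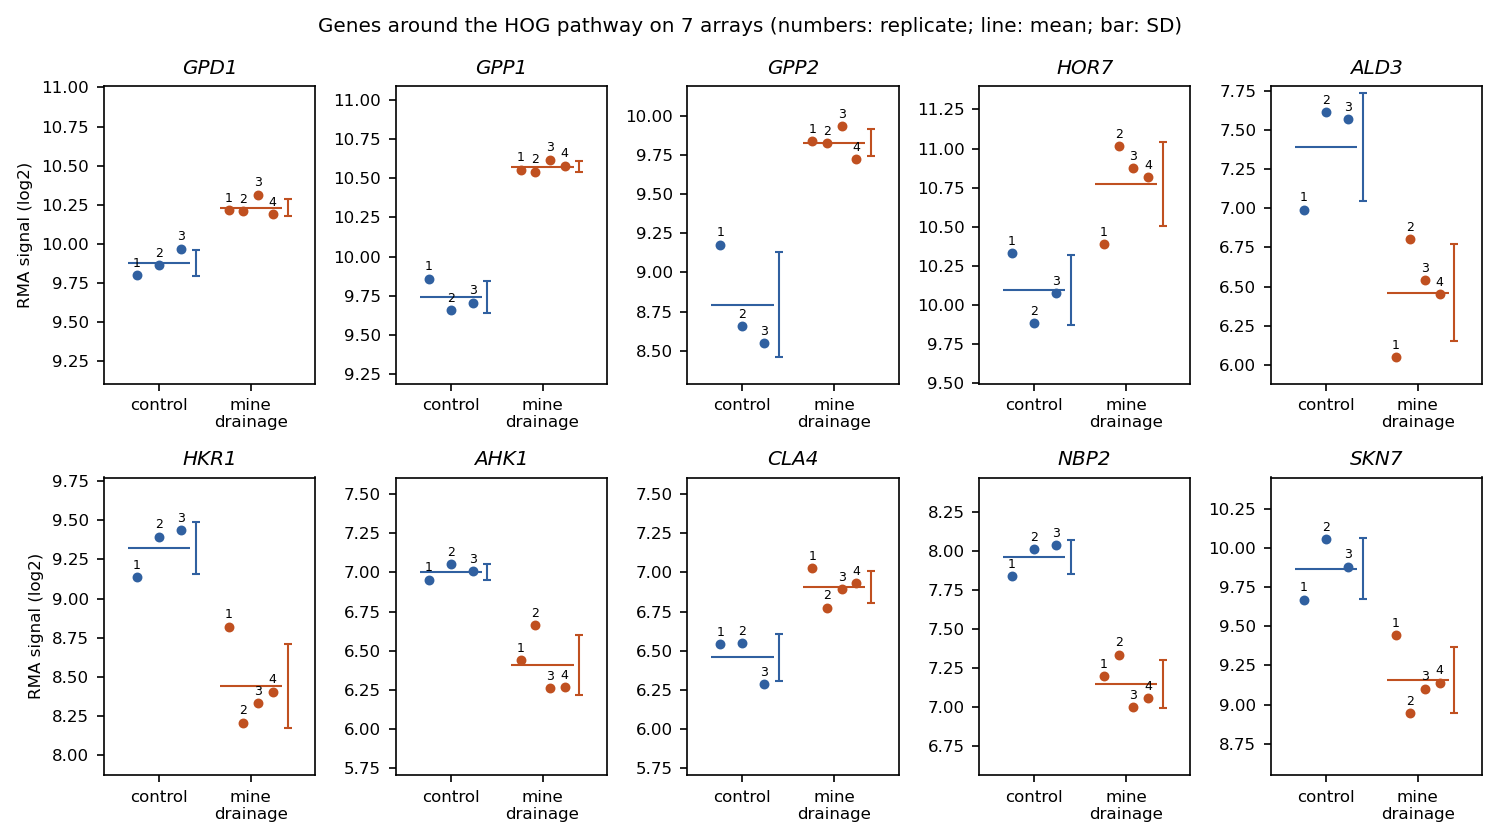
RMA log2 signal of 10 genes around the pathway on the 3 control arrays (blue) and the 4 mine drainage arrays (orange), with the replicate number at each point, the group mean as a line and the SD as a bar, each panel spanning the same range of log2 units. The mine drainage arrays are higher in GPD1, GPP1, GPP2, HOR7 and CLA4 and lower in ALD3, HKR1, AHK1, NBP2 and SKN7, with no overlap in any panel. The 10 genes were picked from those that passed the threshold, so their separation is not a result about the groups. Of the 58 measured genes around the pathway, 32 overlapped, and 38.2% of all probesets did not overlap.

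Among 11 kinases and transcription regulators downstream of Hog1 or Sln1, SKN7 and MCM1 fell and none rose (median 0.01). The share called was 18.2%, beside 31.6% of all probesets (14.5% higher, 17.1% lower). SKN7, the other response regulator that receives phosphate from Ypd1, had 9.45, 8.95, 9.10 and 9.14 in mine drainage and 9.67, 10.06 and 9.88 in control. The fall was 1.64-fold (difference -0.71, standard error 0.14, adjusted p = 0.00655), in the direction opposite to YPD1. MCM1, a MADS-box factor whose activity depends on Sln1, had 9.90, 9.34, 9.04 and 9.17 in mine drainage and 10.02, 10.41 and 10.40 in control. It fell by 0.91 (standard error 0.20, adjusted p = 0.00928), with array 1 of each group closest to the other. The call of MCM1 was lost under a one-way ANOVA (adjusted p = 0.0682) and with the 3' to 5' covariate (-1.04, adjusted p = 0.0519). The general stress factor genes MSN2 and MSN4 differed by 0.11 and 0.33 (adjusted p = 0.419 and 0.104). Among kinase genes that Hog1 is known to act on, RCK2 differed by 0.01 (95% interval -0.20 to 0.22). Its relative RCK1 was too scattered to place, with 6.31, 5.49, 5.53 and 7.54 in mine drainage and 5.77, 5.77 and 5.58 in control.

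Glycerol synthesis is the best known output of the pathway. Of 11 genes of glycerol synthesis, uptake and export, GPD1, GPP1 and GPP2 rose, none fell and 8 did not pass (median 0.23). The share called was 27.3%, beside 31.6% of all probesets (14.5% higher, 17.1% lower). The count over both directions is thus not above the background. All 3 calls were rises, and whether that exceeds the share of rises among all probesets was not tested. GPD1, the glycerol-3-phosphate dehydrogenase induced by osmotic stress, had 10.22, 10.21, 10.32 and 10.19 in mine drainage and 9.80, 9.86 and 9.97 in control. It rose 1.28-fold (difference 0.35, standard error 0.090, adjusted p = 0.0175). The call was lost after a further quantile normalization, with a difference of 0.21 (adjusted p = 0.116), without control array 2 (adjusted p = 0.0783), with the replicate block (0.0785) and with the 3' to 5' covariate, where the difference was larger, at 0.42 (0.0537).

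GPP1 and GPP2 encode the phosphatases that complete glycerol synthesis. GPP1 had 10.55, 10.54, 10.62 and 10.58 in mine drainage and 9.86, 9.66 and 9.71 in control, a rise of 1.78-fold (difference 0.83, standard error 0.091, adjusted p = 0.00147). GPP2 had 9.84, 9.83, 9.93 and 9.72 in mine drainage and 9.18, 8.66 and 8.55 in control, a rise of 2.05-fold (difference 1.04, standard error 0.15, adjusted p = 0.00261). Both were called in all 17 alternative fits. They are close paralogs, and how far their probes read each other's transcript was not tested.

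GPD2, the isoform of GPD1 linked to redox balance, differed by -0.10 (95% interval -0.43 to 0.24, adjusted p = 0.640). STL1, a glycerol importer gene that depends on Hot1, had 4.15, 5.54, 4.17 and 4.63 in mine drainage and 4.38, 4.21 and 4.39 in control. Only mine drainage array 2 stood well above control, and the difference of 0.30 did not pass (adjusted p = 0.451). FPS1, the glycerol export channel, had 8.78 to 8.80 in mine drainage and 8.85 to 9.04 in control (difference -0.15, adjusted p = 0.203). DAK2, a dihydroxyacetone kinase gene, was dim, at 1.56 to 1.82, near the background level of 1.52.

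Of 11 measured genes listed as osmotically induced and linked to Hog1, HSP12, GRE1, HOR7 and AHP1 rose, ALD3 fell and 6 did not pass (median 0.24). How far each of them depends on Hog1 was not tested. The share called was 45.5%, beside 31.6% of all probesets (14.5% higher, 17.1% lower). HOR7, a small protein gene named for its response to high osmolarity, had 10.39, 11.02, 10.87 and 10.82 in mine drainage and 10.33, 9.88 and 10.07 in control. It rose 1.60-fold (difference 0.68, standard error 0.16, adjusted p = 0.0130), and array 1 of each group differed by little. AHP1, a thiol peroxidase gene, rose by 0.45 (adjusted p = 0.0193) and GRE1, a hydrophilin gene, by 0.53 (adjusted p = 0.0358). HSP12, a small membrane-associated stress protein gene, had 9.94 to 10.65 in mine drainage and 9.38 to 10.03 in control, which overlap. It rose by 0.57 (adjusted p = 0.0434).

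ALD3, an aldehyde dehydrogenase gene, had 6.05, 6.80, 6.54 and 6.45 in mine drainage and 6.99, 7.61 and 7.57 in control. It fell 1.90-fold (difference -0.93, standard error 0.20, adjusted p = 0.00877), against the direction of the other called genes of the group. The call was lost under a one-way ANOVA (adjusted p = 0.0652) and with the 3' to 5' covariate, where the difference was -0.49 (adjusted p = 0.0913). The catalase gene CTT1 differed by 0.24 (adjusted p = 0.104). GRE2, a reductase gene that Sko1 represses, had 6.78, 8.28, 7.58 and 7.48 in mine drainage and 7.25, 7.27 and 7.76 in control (difference 0.10, adjusted p = 0.808). With fewer arrays some of these calls were lost while the differences kept their direction. HOR7 was lost without control array 2 (0.57, adjusted p = 0.0705) or 3 (0.67, 0.0508). AHP1 was lost without control array 2 (0.44, adjusted p = 0.0802) or 3 (0.42, 0.0738) or mine drainage array 4 (0.44, 0.0534). GRE1 was lost without mine drainage array 2 (0.45, adjusted p = 0.0711) or 3 (0.42, 0.0863) or control array 1 (0.49, 0.0840), 2 (0.59, 0.0762) or 3 (0.50, 0.115). HSP12 was lost without mine drainage array 2 (0.44, adjusted p = 0.0759), 3 (0.60, 0.0761) or 4 (0.57, 0.0871) or control array 1 (0.42, 0.133) or 2 (0.55, 0.129). Under the one-way ANOVA HOR7, AHP1, GRE1 and HSP12 were all lost (adjusted p = 0.0729, 0.0638, 0.120 and 0.140), and with the replicate block HOR7, AHP1 and HSP12 (0.0563, 0.0835 and 0.0594). With the 3' to 5' covariate AHP1 (0.52, adjusted p = 0.0754) and GRE1 (0.75, 0.0547) were lost, while HSP12 passed at 1.02 (0.0171). HSP12 was also lost after a further quantile normalization (0.44, adjusted p = 0.118).

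Ste11 also serves the pheromone and filamentous growth pathways. Of 10 further genes of those pathways, FUS3 and DIG2 rose, STE5, KSS1 and TEC1 fell and 5 did not pass (median -0.03). The share called was 50%, beside 31.6% of all probesets. TEC1, a transcription factor of filamentous growth, had 6.81, 6.38, 6.48 and 6.62 in mine drainage and 7.30, 7.56 and 7.39 in control, a fall of 1.80-fold (difference -0.85, standard error 0.12, adjusted p = 0.00280). KSS1, the MAP kinase of filamentous growth, fell by 0.42 (adjusted p = 0.0266), while FUS3, the MAP kinase of the pheromone response, rose by 0.46 (adjusted p = 0.0266). STE5, the scaffold of the pheromone pathway, fell by 0.56 (adjusted p = 0.0111), and DIG2, an inhibitor of the factor Ste12, rose by 0.34 (adjusted p = 0.0393).

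Within this group TEC1 alone was called in all 17 alternatives. STE5 was lost without control array 3 (-0.48, adjusted p = 0.0523), under the one-way ANOVA (0.0555) and with the 3' to 5' covariate, where the difference was -0.32 (0.125). FUS3 was lost without control array 2 (0.45, adjusted p = 0.0943) or 3 (0.38, 0.105), under the ANOVA (0.0851), with the block (0.0510) and with the covariate (0.45, 0.134). KSS1 was lost without mine drainage array 3 (adjusted p = 0.0682) or 4 (0.0551) or control array 1 (0.0571), 2 (0.105) or 3 (0.0594), under the ANOVA (0.0765), with the block (0.0695) and after a further quantile normalization (0.0677), while it passed with the covariate at -0.64 (0.0288). DIG2 was lost without mine drainage array 2 (adjusted p = 0.0705) or 4 (0.108) or control array 1 (0.0750), 2 (0.112) or 3 (0.107), under the ANOVA (0.0748), with an intensity trend and robust prior (0.0720), with the block (0.154) and with the covariate (0.0953).

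**Figure D5:**
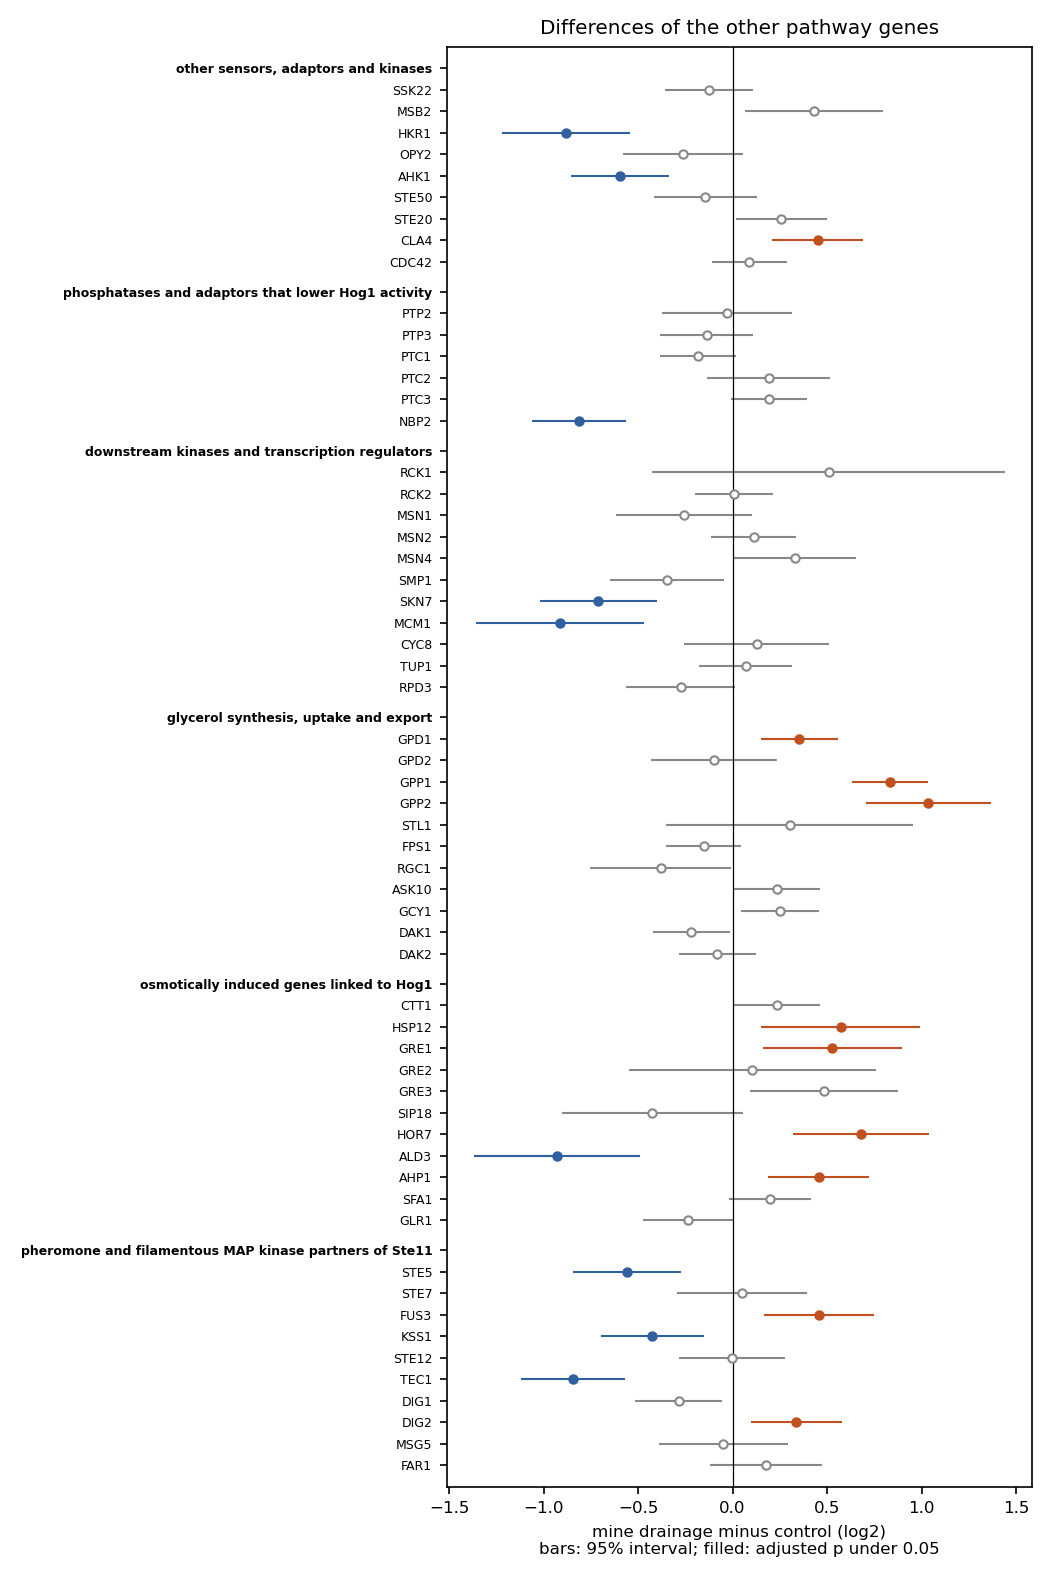
Mine drainage minus control on the log2 scale for the 58 measured genes of the 6 groups around the pathway, with the 95% interval from limma, filled where the adjusted p is under 0.05. The filled points of the glycerol group (GPD1, GPP1, GPP2) lie to the right of zero and those of the downstream regulators (SKN7, MCM1) to the left. The group of other sensors, adaptors and kinases has filled points on both sides, with the kinase gene CLA4 to the right and HKR1 and AHK1 to the left. The osmotically induced genes and the partners of Ste11 also have filled points on both sides.

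Genes of like function were also compared within each array, as the difference between their probesets, to ask whether they differed between the groups by unequal amounts. For 7 such pairs all 35 divisions of the arrays into groups of these sizes were enumerated (exact permutation test, two-sided, smallest possible p = 0.0286), so a single pair whose groups are fully apart could reach only an adjusted p of 0.200. The values are therefore given as a description. MSB2 minus HKR1 was -2.18 to -1.62 in mine drainage and -3.63 to -2.67 in control, a shift of 1.31 with no overlap (exact p = 0.0286, adjusted p = 0.200). GPD1 minus GPD2 shifted by 0.45 (exact p = 0.0571, adjusted p = 0.200). SSK2 minus SSK22 was -0.78 to 0.051 in mine drainage and -0.24 to 0.017 in control (shift -0.32, exact p = 0.229, adjusted p = 0.450). GPP1 minus GPP2 shifted by -0.20 (exact p = 0.257, adjusted p = 0.450). The pairs MSN2 and MSN4, PTP2 and PTP3, and RCK1 and RCK2 had adjusted p from 0.520 to 0.600.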

How the data were processed

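Total RNA from 7 cultures was amplified, labelled with biotin and hybridized to Affymetrix Yeast Genome 2.0 arrays. The deposited log2 values were made by the authors with RMA in Partek, per the labels: probe signals were corrected for background, quantile normalized and summarised to 1 value per probeset, which gives all arrays nearly the same distribution. Of 10928 probesets, 5498 name S. cerevisiae genes (through gene identifiers in an R64 table). A further 1746 name a gene whose identifier is absent from that table. These were taken as probesets for S. pombe, without a species label. Groups and replicate numbers came from the sample titles. Mine drainage minus control was fitted without covariates in limma 3.58.1 (R 4.3.3), which gave a median of 9.66 degrees of freedom. Intervals are at 95%. The one-way ANOVA of the methods, priors, array weights, scalings, filters, a replicate block, single arrays left out, a coding length trend and the 3' to 5' covariate were tried as alternatives. The fit was checked on simulated data with independent noise for each probeset and array. The simulation held no displaced array and no RNA quality difference between groups, so it does not cover those features of the data. The members, gene lists and alternatives were chosen with earlier results of these data known. The text names the 10 members, every gene of the other lists that passed, and both genes of each pair of like function. STL1, FPS1, DAK2, CTT1, GRE2, PTC1, PTC2 and PTC3 were chosen after their values were seen. Each gene used its probeset with the highest mean, without identifiers ending in _s_at or _x_at. Promoter and protein sequences were not used here. The number of arrays limits the precision. Figures were drawn with matplotlib 3.10.9.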

Additional observations from a re-analysis of the deposited data

How the results depend on the processing

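Of the called members, HOT1 kept its call in 17 of 17 alternatives, YPD1 in 16, SHO1 in 12, HOG1 in 10 and SSK2 in 7, and no called member changed direction. These fits are not independent checks. Leaving out dim or shared probesets left the member differences unchanged, and the replicate block gave the same differences as leaving out mine drainage array 4 (for HOT1 -0.61 in both). The methods' one-way ANOVA called 1 member higher and 1 lower, with HOG1 (0.41), SHO1 (-0.54) and SSK2 (-0.45) lost (adjusted p = 0.0657, 0.0886 and 0.104), 4 genes of the other lists higher and 5 lower, and 362 and 368 of all probesets (13.3%). The replicate numbers showed no sign of pairing the cultures: same-numbered arrays had deviations that correlated at -0.07, -0.18 and 0.08. Arrays with unlike numbers ran from -0.18 to 0.30, and so few correlations cannot exclude pairing. With the replicate block, in which mine drainage array 4 has no partner and drops out, HOG1 (0.42), SHO1 (-0.56) and SSK2 (-0.46) were lost, leaving 1 member higher and 1 lower, 3 genes of the other lists higher and 8 lower, and 432 and 497 of all probesets (16.9%). With the 3' to 5' covariate, which differs between the groups, YPD1 (0.52), HOG1 (0.20) and SSK2 (-0.24) were lost and PBS2 (-0.011) and SKO1 (-0.033) turned. It left 0 members higher and 2 lower (HOT1 and SHO1), 5 genes of the other lists higher and 6 lower, and 228 and 283 of all probesets (9.29%). The array weights stopped before they converged and called 59.9% of all probesets (1476 higher, 1820 lower), 21 genes of the other lists higher and 23 lower, and SLN1 (-0.30) and SSK1 (0.39). The coding length trend left SSK2 at -0.29 and SLN1 at -0.13. The PTP2 minus PTP3 shift turned to -0.011 after a further quantile normalization. The causes were not tested.

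With single arrays left out, differences ranged from 0.18 to 0.41 for SSK1, -0.56 to -0.36 for SSK2, -0.66 to -0.45 for SHO1, 0.33 to 0.49 for HOG1, 0.0039 to 0.16 for STE11, 0.070 to 0.19 for PBS2 and -0.0047 to 0.073 for SKO1. Members called ranged from 1 to 3 higher and 1 to 3 lower, genes of the other lists from 3 to 12 higher and 7 to 13 lower, and all probesets from 324 to 832 higher and 364 to 980 lower. The lowest counts of all probesets, 324 and 364, came without control array 2. Of the 19 other genes called, 9 kept the call under the one-way ANOVA, 11 with the block and 9 with the covariate. No member had another probeset to compare. The array number limits what can be called, and DAK2 is limited by a signal near background.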

Other observations

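Mine drainage array 2 held the highest signal of all 7 arrays for STL1 (5.54, against 4.15 to 4.63 on the others). The same held for GRE2 (8.28, against 6.78 to 7.76). Both are known targets of the pathway and were chosen after their values were seen. The place of array 2 differed among other listed genes: it was highest for HOR7 (11.02) and lowest of the mine drainage arrays for GPP1 (10.54). Mine drainage array 4 held the highest RCK1 signal (7.54, against 5.49 to 6.31). STL1, GRE2 and RCK1 did not pass the test between the groups.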
